A study of Mus musculus with 4 samples.

Results

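Fshr and Lhcgr, the genes of the receptors for follicle-stimulating hormone (FSH) and luteinizing hormone (LH), were followed in single cells of the mouse ovary. They were chosen by name as the pair of gonadotropin receptors, and they are 2 of the 32285 genes in the count matrices. Their unique molecular identifiers (UMIs, each marking 1 captured mRNA molecule) were counted in granulosa cell (GC) states and in theca, interstitial and luteal cells. Whole ovaries of 8-week-old female littermates were dissociated and sequenced with 10x Genomics 3′ chemistry. There were 2 libraries from Fosl2flox/flox mice without Cre (Fosl2F/F 1 and 2) and 2 from Cyp19a1-Cre; Fosl2flox/flox mice (Fosl2cKO 1 and 2). All 4 libraries came from mice with the floxed Fosl2 alleles, and the labels name no hormone treatment. The Cre is driven by the promoter of Cyp19a1, the aromatase gene of GCs in growing follicles. Cells whose lineage never used this promoter are meant to keep Fosl2. Which classes carried the deletion was not tested. The study describes vaginal smears of the estrus phase for the mice used in this experiment and as many mice per genotype as there are libraries. The labels do not tie a library to an animal.

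FSH acts on GCs and drives their proliferation, aromatase expression and the growth of antral follicles. LH acts on theca and interstitial cells, where it stimulates androgen synthesis, and on mural GCs of preovulatory follicles, which acquire its receptor under FSH and answer the LH surge with ovulation and luteinization. Both receptors couple to Gs, adenylyl cyclase and protein kinase A, and cumulus cells around the oocyte are known for having little LH receptor.

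The genes are neighbours on mouse chromosome 17 (GRCm38, GENCODE M21), on the minus strand. Fshr (ENSMUSG00000032937) spans chr17:88984952-89200675 with 10 exons, and Lhcgr (ENSMUSG00000024107) spans chr17:88716481-88791990 with 11 exons in its coding transcript. The 192961 bp between them hold 1 annotated gene, the processed pseudogene CT009630.1. The 250 bases before each RefSeq transcript start are shown because the neighbours were not highest in the same class by median, and their starting sequences differ in composition. The windows are chr17:89200676-89200925 for Fshr and chr17:88792015-88792264 for Lhcgr (RefSeq, GRCm38.p6, minus strand, written 5′ to 3′). Capitals mark an E-box (CACGTG) in Fshr and Sp1 boxes (GGGCGG) in Lhcgr.
Fshr: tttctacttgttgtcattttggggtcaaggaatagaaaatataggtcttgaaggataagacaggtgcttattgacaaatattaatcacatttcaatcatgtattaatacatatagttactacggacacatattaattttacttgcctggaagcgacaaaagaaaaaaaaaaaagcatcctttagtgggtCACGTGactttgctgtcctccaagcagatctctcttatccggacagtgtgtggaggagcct
Lhcgr: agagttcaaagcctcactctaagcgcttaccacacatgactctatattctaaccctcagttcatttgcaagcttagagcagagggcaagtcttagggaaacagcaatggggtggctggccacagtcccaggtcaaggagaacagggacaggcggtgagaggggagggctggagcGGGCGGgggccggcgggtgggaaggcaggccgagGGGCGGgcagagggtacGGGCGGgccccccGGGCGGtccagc
The Fshr window had 36.8% G and C and the Lhcgr window 63.2%, against a median of 52.4% over 32851 windows of 27025 genes. The E-box of Fshr lay 56 to 61 bases before the start, and CACGTG was found in 6.02% of all windows. The 4 GGGCGG boxes of Lhcgr lay 71 to 76, 37 to 42, 20 to 25 and 7 to 12 bases before the start, and 32.7% of all windows held at least 1. Both strands were searched. Neither window held the AP-1 motif TGANTCA, bound by factors of the family of Fosl2, which 6.75% of all windows held. The element of the nuclear receptor SF-1, AAGGTCA, was in 4.08% of windows and in neither receptor's. The motif AGATAA of GATA factors was in 9.99% of windows and also in neither. These matches describe letters only and do not show binding.

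After filtering, 8150, 19575, 6760 and 7053 cells with 107944564, 104303269, 111314200 and 105152859 UMIs remained in Fosl2F/F 1, Fosl2F/F 2, Fosl2cKO 1 and Fosl2cKO 2, the order used for every series of 4 values here. Fosl2F/F 2 stood apart in depth, with a median of 3655 UMIs per cell against 11177 to 12465 in the others. Library pairs shared 15 to 81 cell barcodes, at most 0.763% of the smaller library. Fosl2, the targeted gene, stood at 161, 167, 168 and 115 CPM (UMIs of the gene per 1000000 UMIs of the class) in GC-like cells and at 256, 225, 309 and 161 CPM in mural-like cells. The genotypes overlapped in both, as in cumulus-like and atretic-like cells, and the fitted log2 difference was −0.25 ± 0.20 (SE, edgeR adjusted p = 0.9997) in GC-like and −0.07 ± 0.31 (adjusted p = 0.999) in mural-like cells. In mitotic-like (119 and 153 against 119 and 90.3 CPM), glycolytic antral-like (106 and 116 against 90.1 and 78.4 CPM) and growing follicle-like cells (131 and 151 against 112 and 120 CPM) both Fosl2cKO values lay below both Fosl2F/F values, in mitotic-like cells by under 1 CPM at the nearest, and no difference passed edgeR’s test. The same order was found for 17%, 16.3% and 12% of all genes in these states. Fosl2 counts thus did not check the genotypes, and the second pair is called the libraries labelled Fosl2cKO. LoxP sites are described at exons 2 and 4, and whether the UMIs counted at the 3′ end lie in the deleted part was not tested. Of the granulosa markers, Inha, the inhibin α subunit, stood at 3920 to 7340 CPM in GC-like cells. Cyp17a1, the androgen-forming enzyme of theca cells, stood at 4142, 2128, 64.8 and 1697 CPM in theca-like cells, lowest in Fosl2cKO 1. Insl3, another theca marker, reached only 4.65 to 8.84 CPM in theca-like cells.

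Fshr was a granulosa transcript in all 4 libraries. GC-like cells held 97.0%, 90.4%, 87.7% and 95.2% of its 40268, 8848, 7214 and 27416 UMIs, while they made up 53.5%, 33.3%, 30.2% and 32.8% of the cells. Its level in GC-like cells was 553, 209, 129 and 544 CPM. Both genotypes thus had 1 library above 543 CPM and 1 at or below 209 CPM.

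Among the GC-like states, mural-like cells, which line the follicle wall, had 793, 297, 149 and 826 CPM of Fshr. Glycolytic antral-like cells, named for Ldha, Slc16a3 and other glycolysis-linked genes, had 622, 353, 165 and 596 CPM. Mitotic-like cells had 544, 263, 136 and 548 CPM. In each of these states the libraries kept the same pattern, with Fosl2F/F 1 and Fosl2cKO 2 high and Fosl2cKO 1 lowest. Atretic-like cells had 478, 229, 151 and 622 CPM, and growing follicle-like cells, marked by Amh, had 415, 192, 130 and 625 CPM. The ranges of these 5 states overlapped, and their medians ran from 545 CPM in mural-like to 303 CPM in growing follicle-like cells. Within libraries, mural-like cells lay above mitotic-like and growing follicle-like cells in 4 of 4, and glycolytic antral-like above mitotic-like cells in 4 of 4. Mural-like cells were above glycolytic antral-like cells in 2 of 4. A further cluster of 577 shallow cells led by Gm26917 and Spef2, with granulosa markers but unnamed for its low depth, lay in the same range at 731, 336, 114 and 919 CPM.

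Cumulus-like cells, whose markers belong to the cells around the oocyte, had 116, 40.2, 47.5 and 90.9 CPM of Fshr. Their highest library lay below the lowest library of the 5 other states. Cluster 11, led by Ces2a and Bhmt, had 77.3, 29.7, 100 and 83.5 CPM and overlapped with cumulus-like cells. Luteal-like cells, which arise from luteinized follicle cells, had 44.7, 19.95, 40.4 and 23.7 CPM. All 3 classes were above macrophage-like cells of the same library, which had 18.6, 7.05, 1.36 and 9.28 CPM. Lymphatic endothelial-like cells, which should also lack it, had 44.3, 2.19, 0 and 5.80 CPM from 12, 1, 0 and 1 UMIs. In Fosl2F/F 1 the luteal-like level was thus only just above that background class. Theca-like cells (1.66 to 10.2 CPM) and interstitial steroidogenic-like cells (2.48 to 11.1 CPM) lay in the range of the macrophage-, NK or T- and endothelial-like cells (1.36 to 22.9 CPM), which should lack the receptor, so no Fshr above background was detectable there.

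**Figure D1:**
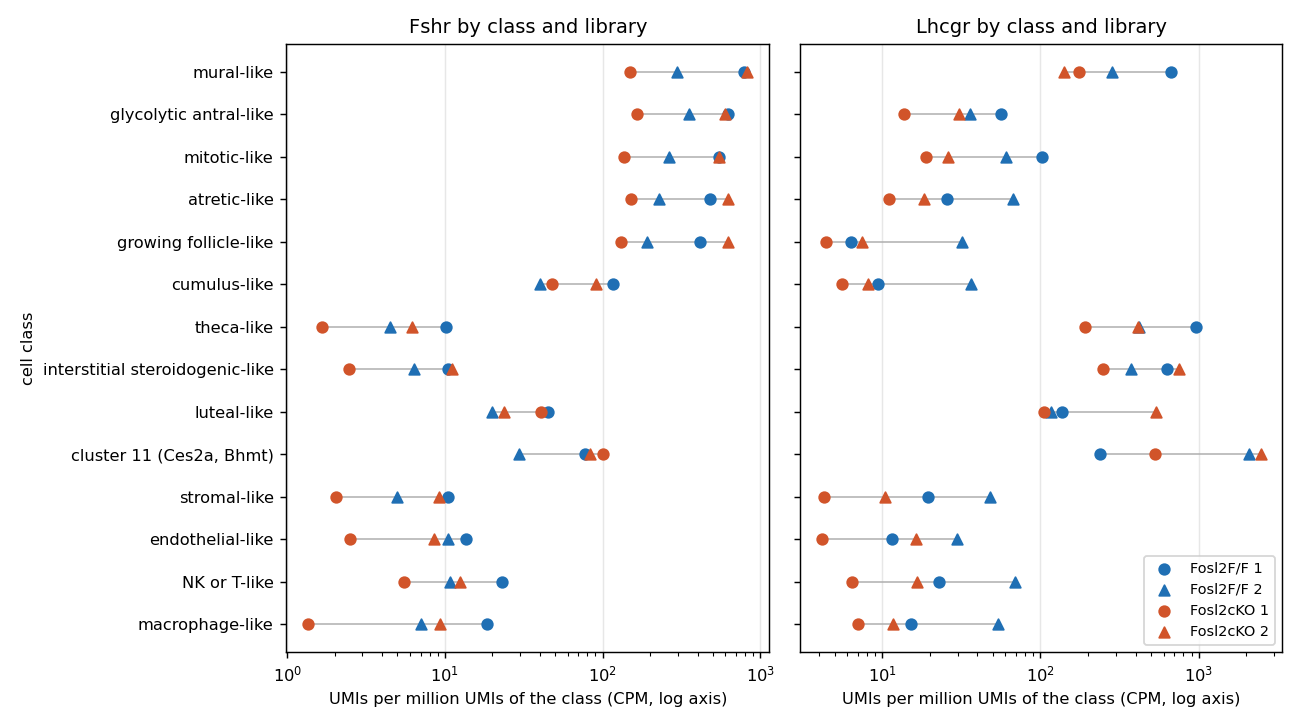
Fshr (left) and Lhcgr (right) level in CPM of each cell class on a log axis, with 1 point per library (colour: genotype, shape: replicate) and a grey line from the lowest to the highest library. Fshr stood at 130 to 826 CPM in 5 GC-like states and at or below 22.9 CPM in macrophage-, NK or T- and endothelial-like cells, whereas Lhcgr was high in mural-like, theca-like, interstitial steroidogenic-like cells and cluster 11.

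Lhcgr had 24433, 38015, 10259 and 25827 UMIs, and the class that held most of them changed from library to library. In Fosl2F/F 1, 58.2% came from GC-like cells (46.8% from mural-like) and 23.2% from theca-like cells. In Fosl2F/F 2, 70.0% came from cluster 11, which was 4.61% of the cells. Interstitial steroidogenic-like cells gave 40.03% and cluster 11 gave 34.1% in Fosl2cKO 1, and cluster 11 gave 53.1% in Fosl2cKO 2. GC-like cells held 7.78%, 17.8% and 5.69% in these 3 libraries.

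Theca-like cells, the androgen-producing layer outside the follicle, had 964, 420, 191 and 414 CPM of Lhcgr. Interstitial steroidogenic-like cells, marked by Cyp11a1 and Hsd3b1, had 631, 372, 248 and 747 CPM. The 2 classes overlapped, and Fosl2cKO 1 was lowest in both. Luteal-like cells had 137, 117, 105 and 538 CPM, from 109, 342, 14 and 35 cells, and Fosl2cKO 2 alone was high. The make-up of the class differed between libraries, and not in Fosl2cKO 2 alone. The luteal marker Akr1c18 stood at 2630, 2288, 173 and 1.48 CPM, Star at 715, 1100, 86.3 and 17.8 CPM and Onecut2 at 437, 852, 162 and 57.8 CPM. Sfrp4 and Parm1 were also lower in both libraries labelled Fosl2cKO. Ptgfr (1949, 2352, 1246 and 1607 CPM) and Hsd3b1 (1363, 1919, 1440 and 1200 CPM) varied less.

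Cluster 11 carried the most Lhcgr by median, with 237, 2066, 528 and 2454 CPM in 67, 902, 318 and 255 cells. Of its interstitial markers, Cyp11a1 (5574 to 8102 CPM) and Hsd3b1 (2031 to 4488 CPM) were high, while Abcb1b (30.3 to 221 CPM) and Hao2 (19.2 to 126 CPM) lay below the 871 to 1563 and 402 to 563 CPM of interstitial steroidogenic-like cells. Of its luteal markers, Sfrp4 (7054, 1619, 267 and 1855 CPM) and Ptgfr (1087, 429, 251 and 629 CPM) were high, while Onecut2 (44.2, 2.95, 0.603 and 1.25 CPM) lay below the 57.8 to 852 CPM of luteal-like cells. Its marker score was 0.647 for interstitial and 0.406 for luteal cells, a lead too small to name it. In Fosl2F/F 1 only 18 of the 67 cells had over 2000 UMIs. Akr1c18, an enzyme that inactivates progesterone and marks regressing corpora lutea, stood at 2489 CPM in that library and at or below 4.97 CPM in the other 3. Clusters 1 and 16, which scored for both stromal and theca cells and were left unnamed, had 11.2 to 74.0 and 6.26 to 64.3 CPM of Lhcgr.

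Within the granulosa lineage, Lhcgr was highest in mural-like cells, at 671, 282, 175 and 141 CPM. Mitotic-like cells had 102, 60.5, 18.9 and 26.2 CPM. In each library the mural-like value was over that of every other GC-like state. The mitotic-like cells fell into a cluster whose next score was glycolytic antral, with 135, 77.3, 29.7 and 39.3 CPM, and a cluster whose next score was growing follicle, with 9.70, 28.6, 3.93 and 9.57 CPM.

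Glycolytic antral-like cells had 56.6, 35.9, 13.7 and 30.5 CPM of Lhcgr, and atretic-like cells 25.8, 67.4, 11.05 and 18.3 CPM. Cumulus-like cells had 9.37, 36.4, 5.59 and 8.19 CPM, and growing follicle-like cells 6.38, 32.0, 4.40 and 7.48 CPM. In all 4 libraries the last 2 states lay below the macrophage-like level of 15.1, 54.1, 7.03 and 11.7 CPM. Lhcgr in cumulus-like and growing follicle-like cells was therefore not detectable above background, while Fshr was present in both. The glycolytic antral-like value rests on how the clusters were drawn, since its median of 33.2 CPM moved to 12.2 and 11.4 CPM with coarser and finer clusters.

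The spread between libraries was large for both receptors. On the CPM + 1 scale, the highest mural-like library was 5.53 times the lowest for Fshr and 4.74 times for Lhcgr, against a median of 1.37 over 3917 genes of at least 50 CPM. Spreads at least as large were found for 0.383% and 0.434% of these genes. For Lhcgr the ratio was 5.03 in theca-like cells (median of all genes 1.497), 2.999 in interstitial steroidogenic-like cells and 10.3 in cluster 11. By CPM the highest mural-like library was Fosl2cKO 2 for Fshr and Fosl2F/F 1 for Lhcgr, so the receptors did not rank the libraries alike.

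The genotypes were compared to ask whether receptor expression differed in the libraries labelled Fosl2cKO. UMIs were summed per class and library and fitted with the edgeR quasi-likelihood test over all genes. To pass, a gene needed a Benjamini-Hochberg adjusted p below 0.1 together with a log2 difference beyond 0.25 either way. In GC-like cells Lhcgr stood at 201 and 77.4 CPM in Fosl2F/F 1 and 2, against 37.0 and 30.6 CPM in the other pair. Mural-like cells, the state with the most Lhcgr, were 1334 of 4363, 935 of 6511, 338 of 2044 and 256 of 2312 cells of this class. The groups did not overlap, as for 14.5% of all genes tested in this direction. The log2 difference was −2.10 ± 0.45 by the edgeR quasi-likelihood test (adjusted p = 0.548), which did not pass. With the replicate number as a block it was −1.92 and passed (edgeR, adjusted p = 0.0508), as did 0.395% of all genes in that fit.

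In mural-like cells the means of Lhcgr were 476 ± 275 CPM (SD, n = 2) in Fosl2F/F and 158 ± 24.1 CPM (SD, n = 2) in the libraries labelled Fosl2cKO. Both latter libraries lay below both Fosl2F/F libraries, which held for 12% of the genes tested. The log2 difference was −1.64 ± 0.40 (edgeR, adjusted p = 0.563). Markers of other cells with Lhcgr were also counted in mural-like cells. The 3 interstitial steroidogenic markers other than Cyp11a1 and Hsd3b1 summed to 139, 67.1, 39.7 and 35.2 CPM. The 5 luteal markers other than Star and Hsd3b1 summed to 74.3, 122, 57.7 and 39.2 CPM, and the genotypes lay apart in both lists. The 7 theca markers summed to 1289, 744, 1128 and 727 CPM, and there the genotypes overlapped. The part of these other cells in the Lhcgr difference was not tested. Mitotic-like cells had the smallest adjusted value of the GC-like states, with a log2 difference of −1.88 ± 0.30 (edgeR, adjusted p = 0.225) and no overlap, as for 17% of genes. The Lhcgr difference was −1.68 ± 0.45 in atretic-like (edgeR, adjusted p = 0.848) and −1.12 ± 0.40 in glycolytic antral-like cells (adjusted p = 0.470). Atretic-like levels were near those of NK or T-like cells (22.9, 69.5, 6.44 and 16.6 CPM), and in Fosl2F/F 2 the glycolytic antral-like level was below the macrophage-like one and the mitotic-like level below the NK or T-like one. In cumulus-like (−1.79 ± 0.48) and growing follicle-like cells (−1.67 ± 0.65) the levels were those of background, which itself differed by −1.95 in macrophage-like and −2.02 in NK or T-like cells.

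The outcome depended on the libraries used. Without Fosl2cKO 1, Lhcgr passed in GC-like cells (−2.21, edgeR adjusted p = 0.0410) and in mural-like cells (−1.80, adjusted p = 0.0231), where 0.735% and 1.33% of all genes then passed. In mural-like cells it also passed without Fosl2cKO 2 with −1.51 (adjusted p = 0.0916), as did 1.1% of all genes. Without Fosl2F/F 1, the library with the most Lhcgr in GC-like cells, the difference was −0.86 and did not pass there, and without Fosl2F/F 2 it was −2.14 (adjusted p = 0.109). DESeq2 called Lhcgr in GC-like, mural-like, mitotic-like, atretic-like and stromal-like cells, with an adjusted p of 0.00373 in mural-like cells. DESeq2 called 0.975%, 0.59%, 1.17%, 0.376% and 0.319% of all genes in these classes.

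Outside the follicle wall the values were mixed. In theca-like cells Lhcgr was 964 and 420 CPM against 191 and 414 CPM, with a log2 difference of −1.28 ± 0.47 (edgeR, adjusted p = 0.9997). The groups were separate only by the distance between 420 and 414 CPM, and non-overlap in this direction held for 10.5% of genes. The lowest value came from Fosl2cKO 1, where the theca markers were mixed. Cyp17a1 (64.8 against 1697 to 4142 CPM in the others), Enpep (91.7 against 235 to 507 CPM) and Insl3 (4.65 against 5.09 to 8.84 CPM) were lowest there. Aldh1a1 (2691 against 1553 to 2155 CPM), Mgarp (887 against 417 to 787 CPM) and Asb4 (137.5 against 69.7 to 135 CPM) were highest there. Ptch1 lay within the range of the others. Abcb1b, an interstitial marker, stood at 117 CPM in Fosl2cKO 1 against 9.16 to 42.0 CPM. The difference was −0.82 without that library and −0.51 without Fosl2F/F 1, and without Fosl2cKO 2 it was −1.95 and passed (adjusted p = 0.0437), as did 1% of all genes. In interstitial steroidogenic-like cells (−0.06 ± 0.43) and cluster 11 (0.21 ± 0.95) the genotypes overlapped.

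In stromal-like cells Lhcgr passed the test, with 19.5 and 47.9 CPM in Fosl2F/F against 4.29 and 10.4 CPM in the libraries labelled Fosl2cKO, a log2 difference of −2.21 ± 0.43 (edgeR, adjusted p = 0.0440). The call was lost without Fosl2F/F 1 (−2.69, adjusted p = 0.609), without Fosl2F/F 2 (−1.45, adjusted p = 0.835) and with the replicate number as a block (−2.20, adjusted p = 0.225). The groups did not overlap, as for 14.5% of the genes tested there. These levels lay below those of NK or T-like cells, which should lack the receptor and had 22.9, 69.5, 6.44 and 16.6 CPM. In macrophage-like cells Lhcgr differed by −1.95 ± 0.49 (adjusted p = 0.318), without overlap, as for 15.2% of genes, and in NK or T-like cells by −2.02 ± 0.54 (adjusted p = 0.121). Of the 10 granulosa markers, 7 were lower in both libraries labelled Fosl2cKO than in both Fosl2F/F libraries in macrophage-like cells, and Amh, Kctd14 and Cyp19a1 were not. Their summed level there was 670, 468, 229 and 240 CPM. Inha was at 321, 220, 83.4 and 85.95 CPM in macrophage-like cells (−1.74 ± 0.30, adjusted p = 0.0635), at 601, 254, 204 and 115 CPM in NK or T-like cells and at 289, 172, 80.3 and 69.3 CPM in endothelial-like cells. The part of free RNA in the stromal-like call was not tested.

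Over the 14 classes tested, Lhcgr passed in 1, and 11 had an unadjusted p under 0.05, which 3.88% to 11.2% of all genes had by class. In 10 of the 14 classes the higher Fosl2cKO value for Lhcgr was under the lower Fosl2F/F value, and in 0 classes the reverse held. This order was found for 10.5% to 18.1% of all genes by class, and the classes share libraries and are not independent. Fshr passed in 0 of the 13 classes in which it could be fitted by edgeR, with 0 at an unadjusted p under 0.05, and it was also called in 0 by DESeq2. In NK or T-like cells it did not pass the filter on low counts. The share of all genes that passed was 0.0058% in GC-like, 0.0157% in mural-like, 0.121% in cumulus-like, 0.00752% in atretic-like, 0.00693% in mitotic-like, 0.00795% in glycolytic antral-like and 0.00811% in growing follicle-like cells. It was 0.0391% in theca-like, 0.125% in interstitial steroidogenic-like and 0.016% in cluster 11, and 0.212% in stromal-like, 0.252% in macrophage-like, 0.829% in NK or T-like and 0.213% in endothelial-like cells. Calls were thus rare for any gene. Data were simulated with a dispersion estimated from the 4 libraries without regard to genotype, so that genotype differences counted as noise. In these data the test recovered 1%, 19.5% and 4% of 200 genes changed 2-fold in GC-like, mural-like and theca-like cells, with 0, 16 and 3 false calls. Of 200 genes changed 4-fold it recovered 73%, 87% and 87.5%, with 32, 26 and 29 false calls. At a low dispersion the 2-fold shares were 73%, 70.5% and 65%. These shares are averages over genes drawn at random. Among genes of at least 50 CPM, only 0.0739%, 0.434% and 0.563% in these classes varied between libraries as much as Lhcgr. The simulation therefore does not say how often a change in the receptors would be found.

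For Fshr the log2 difference was −0.22 ± 0.71 in GC-like and −0.21 ± 0.73 in mural-like cells (edgeR, adjusted p = 0.9997 and 0.999), and between −0.41 and 0.23 in the other states. The genotypes overlapped in every GC-like state. This rested on Fosl2cKO 2: without it, Fshr passed in 6 of 14 classes, among them mural-like (−1.94, adjusted p = 0.0159) and mitotic-like cells (−1.62, adjusted p = 2.5e-05). Calls were also more frequent over all genes without this library, at 1.1% in mural-like and 2.14% in mitotic-like cells, and the 6 classes include interstitial steroidogenic-, stromal- and macrophage-like cells, where Fshr was at background. Without Fosl2F/F 1 the difference in mural-like cells was 0.68 and without Fosl2cKO 1 it was 0.56.

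**Figure D2:**
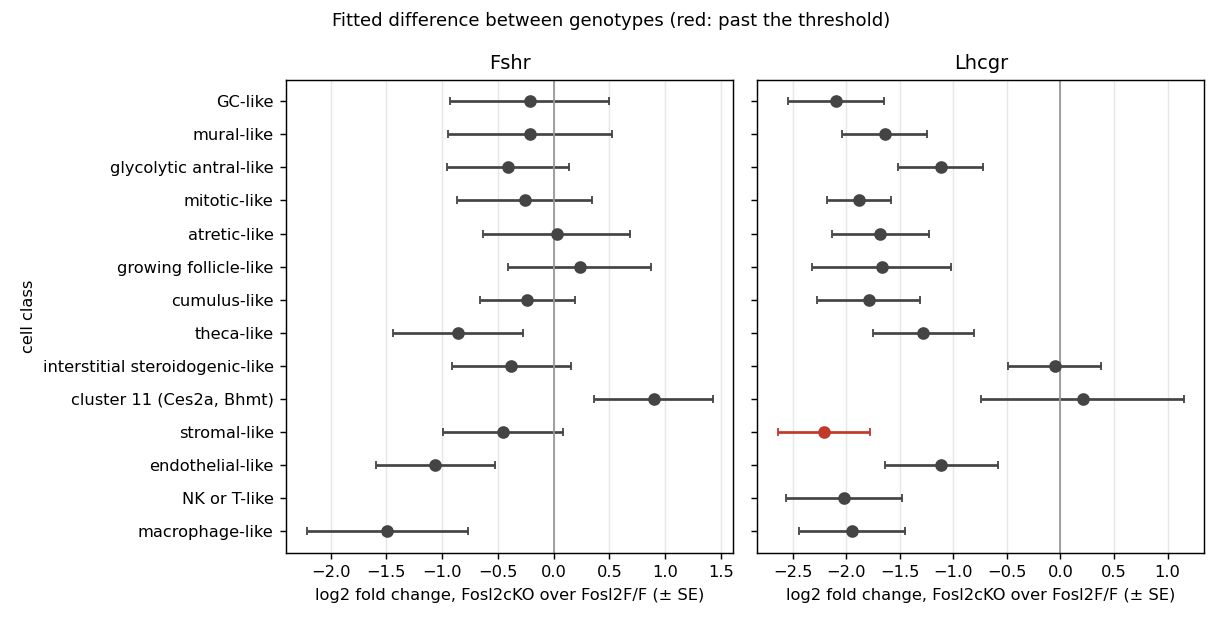
Fitted log2 fold change of Fshr (left) and Lhcgr (right) in the libraries labelled Fosl2cKO over Fosl2F/F by cell class, with bars for the standard error (2 libraries per genotype). Lhcgr lay left of 0 in GC-like cells and their 6 states (−1.12 to −2.10). Of the 6 states, only mural-like cells had it above macrophage- and NK or T-like cells in all 4 libraries. The only point past the threshold (red) was in stromal-like cells, and Fshr lay on both sides of 0.

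Detection per cell was compared after thinning each cell to 2000 UMIs and leaving out shallower cells (0.685% to 7.74% of GC-like cells per library). Fshr was then found in 59.8%, 36.4%, 20.1% and 65.0% of mural-like cells, with 95% Wilson intervals of 57.1 to 62.4, 33.3 to 39.6, 16.2 to 24.7 and 58.9 to 70.6%. Without thinning the shares were 90.0%, 55.0%, 69.2% and 93.8%. Macrophage-like cells gave a background of 3.83%, 1.86%, 0.265% and 3.45%, at median depths of 6960.5, 2348, 8600 and 7931.5 UMIs against 10923, 4282, 16406 and 15455 in mural-like cells. The intervals cover counting error only.

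Lhcgr was found in 56.6%, 35.1%, 25.1% and 21.7% of mural-like cells at 2000 UMIs (86.6%, 53.8%, 59.2% and 64.5% unthinned), against 3.83%, 9.71%, 1.33% and 2.30% of macrophage-like cells. The mean share was 22.5 percentage points lower in the libraries labelled Fosl2cKO, without overlap (exact two-sided permutation test, p = 0.33). With 2 libraries against 2, 0.33 is the smallest p that this test can give. The difference was −11.7 points without Fosl2F/F 1 and −33.2 without Fosl2F/F 2, and unthinned the genotypes overlapped. In theca-like cells the share was 66.2%, 49.9%, 25.8% and 49.2%. In cluster 11 it ran from 44.4% to 93.3% (median 69.6%), with 90.9% in Fosl2F/F 2 and 93.3% in Fosl2cKO 2.

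UMIs per cell were unequal. In mural-like cells of Fosl2F/F 1 the mean at 2000 UMIs was 1.604 for Fshr and 1.41 for Lhcgr, and the variance was 3.01 and 2.45 times the mean. The highest cells there held 19 and 17 UMIs. In the other 3 libraries the ratio of variance to mean was 1.14 to 1.95 for Fshr and 1.34 to 1.74 for Lhcgr.

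Co-detection was described to see whether the receptors shared cells. In mural-like cells 439 of 1317, 99 of 880, 13 of 338 and 29 of 254 cells at 2000 UMIs held both, which is 33.3%, 11.3%, 3.85% and 11.4%. The 95% Wilson intervals were 30.8 to 35.9, 9.33 to 13.5, 2.26 to 6.47 and 8.07 to 15.9%. If the transcripts were spread over cells independently, 33.8%, 12.8%, 5.06% and 14.1% would hold both. Observed over expected was 0.985, 0.881, 0.760 and 0.812. All 4 ratios were below 1 at this setting, and whether they differ from 1 beyond counting error was not tested. With at least 2 UMIs per gene they were 1.45 and 1.30 in Fosl2cKO 1 and 2, and at 1000 UMIs 1.005 in Fosl2F/F 1, so that the side of 1 depends on the setting.

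In Fosl2F/F 1, 58.8% of mural-like cells with Lhcgr also held Fshr, against 60.9% of those without Lhcgr. The same shares were 32.0% and 38.7% in Fosl2F/F 2, 15.3% and 21.7% in Fosl2cKO 1, and 52.7% and 68.3% in Fosl2cKO 2. These shares follow from the same counts. The ratio of observed to expected was 0.147 lower in the libraries labelled Fosl2cKO (exact two-sided permutation test, p = 0.33, the smallest possible). At a minimum of 2 UMIs per gene it was 0.55 higher there.

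Mural-like cells held 76.6%, 47.1%, 68.4% and 46.0% of the GC-like cells with both receptors, while they were 30.6%, 14.7%, 16.7% and 11.1% of the GC-like cells. In mitotic-like cells 8.70%, 3.62%, 0.826% and 2.41% held both, and in glycolytic antral-like cells 6.04%, 3.12%, 0.881% and 2.03%. In cumulus-like cells at most 0.698% did in any library. Lhcgr was found in 9.71% of macrophage-like cells of Fosl2F/F 2 and in at most 9.67% of glycolytic antral-like cells of any library. In Fosl2F/F 2 the glycolytic antral-like cells with both are thus not shown to be above background. Over all GC-like cells the share was 13.3%, 3.50%, 0.936% and 2.74%, and observed over expected was 1.14, 1.099, 0.903 and 0.964.

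Outside GCs, cluster 11 held most of the cells with both in 3 libraries. There 7.23%, 8.44% and 16.0% of the cells of Fosl2F/F 2, Fosl2cKO 1 and Fosl2cKO 2 held both, and observed over expected was 0.977 to 1.02. In theca-like cells at most 1.93% held both, and Fshr itself was at background there.

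**Figure D3:**
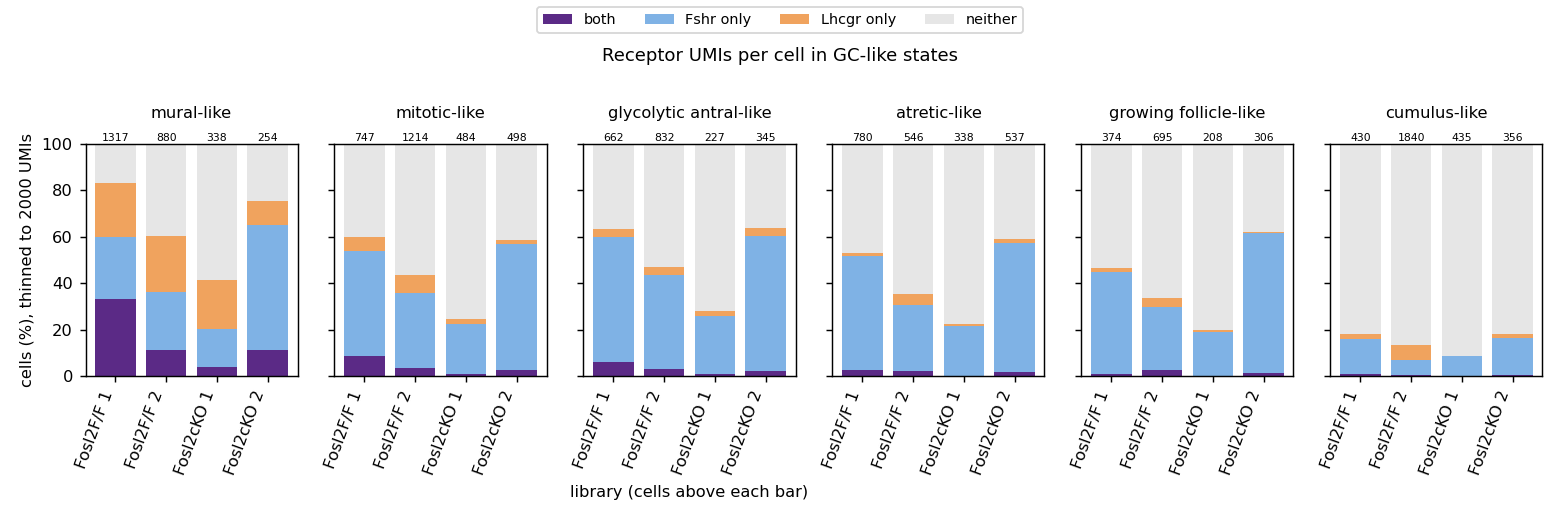
Share of cells (%) with UMIs of both receptors, of 1 or of neither in 6 GC-like states at 2000 UMIs per cell, 1 bar per library with its number of cells above. Mural-like cells had the highest share with both in each library (33.3% in Fosl2F/F 1 to 3.85% in Fosl2cKO 1), and the other states held mostly Fshr alone or neither.

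**Figure D4:**
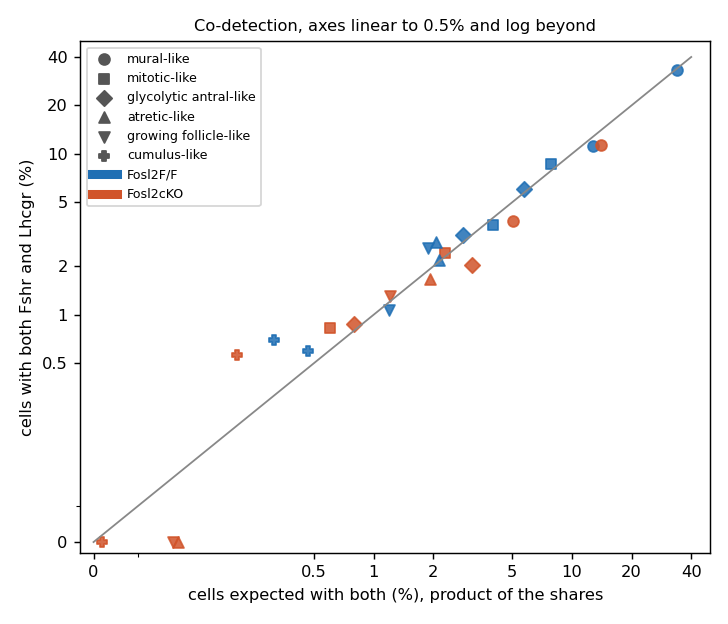
Observed share of cells with both receptors against the share expected from independent spread, for 6 GC-like states (shape) in 4 libraries (colour: genotype), on axes that are linear to 0.5% and logarithmic beyond. Points lay near the line of equality from 0 to 33.8% expected, and the 4 mural-like points lay on or just below it.

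Lhcgr was also compared with the listed genes of the gonadotropin pathway within mural-like cells, between cells with and without an Lhcgr UMI at 2000 UMIs (746, 309, 85 and 55 cells with, 571, 571, 253 and 199 without). Of 49 listed genes of at least 50 CPM, 16 were higher with Lhcgr in all 4 libraries, which is 32.7% against 12.3% of 3916 genes of that level. Another 5 were lower in all 4, which is 10.2% against 15.3% of genes. Cyp11a1, which makes pregnenolone from cholesterol, was at 943, 552, 687 and 272 CPM in cells with Lhcgr and at 494, 389, 454 and 137 CPM in those without. Cyp19a1 was at 612, 227, 98.9 and 251 CPM against 414, 138, 77.6 and 155 CPM. Each was higher with Lhcgr in every library, by a median of 1.70 and 1.55 times.

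Pappa, a protease that frees insulin-like growth factors, was higher by a median of 2.07 times, and Fdx1, the electron carrier of mitochondrial P450 enzymes, by 1.31 times. Gata4, a transcription factor of GCs (1.27 times), and Prkar2b, a regulatory subunit of protein kinase A (1.22), were also higher. Igf1 was lower in cells with Lhcgr, by a median ratio of 0.663, and so were Rgs2, Rapgef4 and Esr2. With an Fshr UMI, 5 of the 49 genes were higher in all 4 libraries, 10.2% against 8.17% of all genes, among them Esr2 (1.099 times) and Igf1r (1.14 times). The 10 that were lower, 20.4% against 8.61% of all genes, included Fdx1 (0.833) and Sgk1 (0.806), each in 4 of 4 libraries.

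In theca-like cells 13 of 48 listed genes were higher with Lhcgr in all 4 libraries (27.1% against 11.3% of genes). Cyp17a1 stood at 4175, 2432, 104 and 1786 CPM with and 2301, 1714, 29.6 and 1220 CPM without Lhcgr. Prkar2b (1.57 times), Fdx1 (1.38) and Cyp11a1 (1.37) were among the others. In interstitial steroidogenic-like cells 7 of 44 were higher (15.9% against 10.1%), led by Cyp11a1 (1.25 times) and Scarb1, the receptor that takes up cholesterol from lipoproteins (1.196 times). Cyp19a1 and Pappa also named the mural-like cells, and Cyp17a1, Cyp11a1 and Hsd3b1 the steroidogenic classes, so these splits are given without a test.

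**Figure D5:**
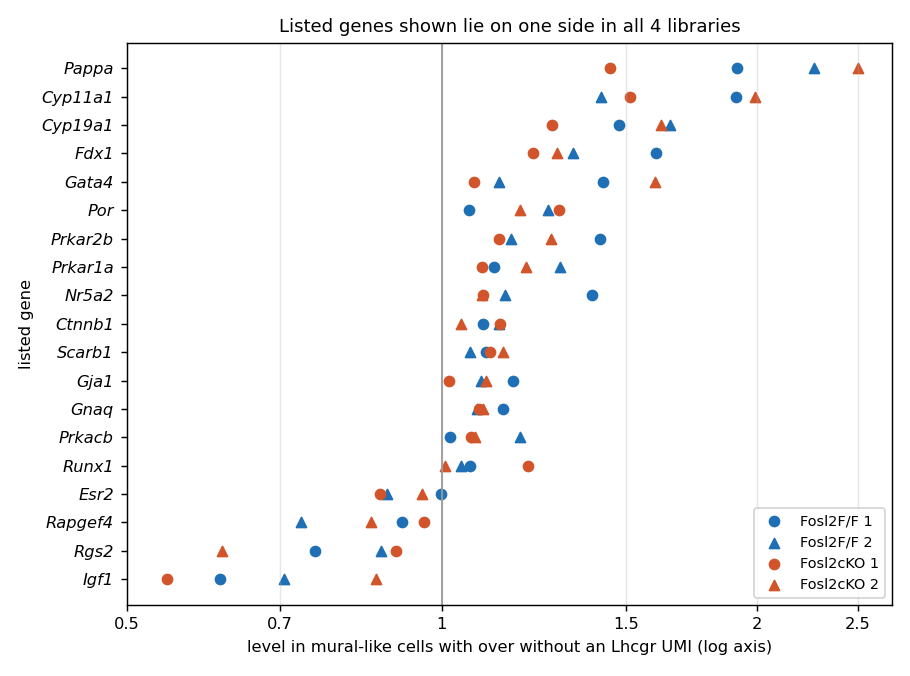
Ratio of the mean level in mural-like cells with an Lhcgr UMI to that in cells without, on a log axis, for most of the listed genes on 1 side of 1 in all 4 libraries (points: libraries, colour: genotype). Pappa, Cyp11a1 and Cyp19a1 had the highest median ratios (2.07, 1.70 and 1.55), and Igf1 the lowest (0.663).

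The wider pathway was followed in 7 lists of 4 to 45 genes, 114 genes in all. In GC-like cells, their 6 states, theca-like and interstitial steroidogenic-like cells and cluster 11, 0 of the 92 to 106 listed genes tested passed between genotypes by edgeR, with 7 to 17 at an unadjusted p under 0.05. That is 7.45% to 17.3% of the listed genes against 3.88% to 9.38% of all genes. Classes at background for both receptors had similar or larger shares. In stromal-, endothelial-, macrophage- and NK or T-like cells 14.3%, 14.1%, 17.7% and 21.4% of the listed genes were under 0.05. Of all genes 4.34%, 4.66%, 5.94% and 11.2% were. DESeq2 called 4 in GC-like cells (Fdx1, Cyp11a1, Gna11 and Cyp17a1), 1 in mural-like (Fdx1), 2 in theca-like (Inha and Pappa) and 7 in mitotic-like cells. These are 3.77%, 1.08%, 2.13% and 7.14% of the listed genes, against 0.975%, 0.59%, 0.25% and 1.17% of all genes. It called 4 in glycolytic antral-like cells (the same 4 as in GC-like cells), 2 each in atretic-like (Grem1 and Prkar2b) and growing follicle-like cells (Prkar2b and Inhba), 1 in interstitial steroidogenic-like cells (Inhba), 3 in cluster 11 (Lgr6, Star and Pde7b) and 0 in cumulus-like cells. For the first 5 of these classes that is 4.35%, 2.15%, 2.17%, 1.05% and 3.19% of the listed genes, against 1.28%, 0.376%, 0.592%, 0.338% and 0.312% of all genes. Of the genes called in GC-like cells, Cyp17a1 stood at only 13.8, 16.1, 8.21 and 4.67 CPM there, against 64.8 to 4142 CPM in theca-like cells. The part of free theca RNA in its call was not tested. The 16 FSH targets of GCs had a median log2 difference of −0.50 in GC-like cells, against −0.02 for all genes. By state the median of this list ran from −0.51 in mitotic-like and −0.31 in mural-like to 0.02 in atretic-like and 0.23 in growing follicle-like cells. Outside GCs it was −0.17 in cluster 11 and −0.40 in endothelial-like cells, and lower than in GC-like cells in 5 classes, at −0.63 in theca-like, −0.72 in interstitial steroidogenic-like, −0.92 in macrophage-like, −1.01 in NK or T-like and −1.07 in stromal-like cells, where 11 to 13 of its 16 genes could be tested. Cyp19a1 was at 527, 167, 82.2 and 171 CPM in mural-like cells (−1.51 ± 0.55, adjusted p = 0.969), and Inhba, the activin subunit, at 5650, 3328, 2879 and 3424 CPM (−0.56 ± 0.29, adjusted p = 0.999). In both genes Fosl2F/F 1 was highest, and the other Fosl2F/F library lay within the range of those labelled Fosl2cKO.

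Fdx1 was at 1209, 858, 514 and 372 CPM in mural-like cells, without overlap (−1.27 ± 0.27, adjusted p = 0.486). The 9 steroidogenic genes tested in mural-like cells had a median difference of −0.29 and the 10 in theca-like cells −0.39, where Cyp17a1 differed by −1.91 ± 0.96 (adjusted p = 0.9997). The median was −0.52 in mitotic-like cells and −0.49 in cluster 11, and 0.24 in atretic-like, 0.23 in growing follicle-like and 0.09 in interstitial steroidogenic-like cells. In classes that should not make steroids it was −0.66 in stromal-like, −0.75 in endothelial-like, −0.98 in macrophage-like and −1.08 in NK or T-like cells. Star, the cholesterol transporter, was at 889, 783, 1409 and 889 CPM in interstitial steroidogenic-like cells and at 7.93 to 31.7 CPM in mural-like cells. The 13 LH and ovulatory targets tested in mural-like cells had a median difference of −0.23, against 0.31 in interstitial steroidogenic-like cells and 0.74 in cluster 11. The median of all genes was 0.008, −0.01 and 0.07 in these classes. The same list had 0.06 in theca-like cells and 0.31 in stromal-like cells, where Lhcgr lay below NK or T-like cells. It had −0.33 in endothelial-like, −0.007 in NK or T-like and 0.03 in macrophage-like cells. Ptgs2 and Pgr, which the LH surge induces, were at or below 0.598 and 1.59 CPM in mural-like cells of every library and did not pass the filter on low counts there.

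Of the G protein, cyclase and kinase list, Gnas, the Gs α subunit, was at 326, 420, 468 and 524 CPM in mural-like cells. Prkar2b was at 287, 294, 601 and 922 CPM in growing follicle-like cells (1.31 ± 0.26, adjusted p = 0.310) and at 520, 591, 1115 and 1252 CPM in atretic-like cells (1.01 ± 0.23, adjusted p = 0.756), higher in both libraries labelled Fosl2cKO, as were 22.4% and 23.3% of all genes in these states. DESeq2 called it in both. In mural-like cells, at 1764 to 3122 CPM, the genotypes overlapped. Mvk, mevalonate kinase, whose protein binds the mRNA of the LH receptor, was at 23.8, 19.5, 18.2 and 19.1 CPM in mural-like cells (−0.27 ± 0.25, adjusted p = 0.999).

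By edgeR, the listed genes that passed did so in immune and endothelial classes. Inha passed in macrophage-, NK or T- and endothelial-like cells, and Gja1, Inhba, Hsd3b1, Scarb1 and Cyp11a1 in NK or T-like cells. All were lower in the libraries labelled Fosl2cKO. They were 1 of 79, 6 of 70 and 1 of 85 listed genes tested, against 0.252%, 0.829% and 0.213% of all genes. With only cells over 2000 UMIs, 4 genes of any kind passed in NK or T-like cells, against 65 with all cells. The hormones themselves are made in the pituitary: Lhb had 0 UMIs in every library and Fshb 0, 1, 0 and 0. Cga, their shared α subunit, had 16, 28, 26 and 24 UMIs.

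Genes were ranked by the correlation of log2(CPM + 1) with each receptor over 22 classes in 4 libraries (88 points, 12547 genes). The points share libraries and depth, and Fst, Nr5a2, Prlr and Cyp11a1 were also class markers, so the values are descriptive. Fshr was most like Mpped2 (r = 0.922), Fst, which encodes follistatin (0.922), and Nr5a2, a nuclear receptor of GCs (0.912), followed by Fam13a (0.883) and Klc2 (0.878). Lhcgr was most like the prolactin receptor gene Prlr (0.866), Fdx1 (0.842), Cst8 (0.817), Cyp11a1 (0.815) and the ferredoxin reductase gene Fdxr (0.792). The receptors correlated with each other at 0.194.

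Over the 6 GC-like states alone (24 points, 8203 genes), Lhcgr kept Fdx1 (0.938), Prlr (0.915) and Cst8 (0.907) among its top 5, with Gpr39 (0.925) and Cobll1 (0.915). For Fshr all 5 were other genes, namely Cbs (0.923), Ass1 (0.920), Drd4 (0.919), Tceal9 (0.915) and Car14 (0.909). Fshr and Lhcgr correlated at 0.409 there.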

How the data were processed

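The authors deposited 1 matrix of UMI counts per gene and cell barcode for each of 4 10x Genomics libraries (3′ v3 kit, mm10, which is GRCm38). Their methods name Cell Ranger and CellBender, the file headers give Cell Ranger 7.1.0, and the submitters' processing notes list Seurat 4.1.0. Whether intronic reads were counted and whether free RNA had been removed from the deposited counts is not given in the sources used here.

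Barcodes with at least 500 genes, at least 1000 UMIs, under 10% mitochondrial and under 0.1% haemoglobin UMIs were kept, and Scrublet scores removed the highest 0.8% of cells per 1000 cells as doublets (614, 4723, 412 and 450 cells). Cells were clustered with Seurat 5.3.0 and sctransform 0.4.2 (3000 features, 30 dimensions, resolution 0.8, then 0.5 within GC-like cells), with Fshr and Lhcgr kept out of the features and out of the marker lists. A cluster was named for its best marker score where this reached 0.2, led the next by 0.1 (0.3 between steroidogenic classes, set after the clusters were seen), and rested on at least 3 markers, and the names may differ from those of the study. Counts were summed per class and library. A class needed 20 or more cells in each library, so luteal-like cells were not tested. This minimum alone did not set the classes tested. Pericyte or smooth muscle-, epithelial-, lymphatic endothelial-, B- and oocyte-like cells were also not tested. The same holds for the unnamed clusters, apart from the one led by Ces2a and Bhmt.

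Sums were tested with edgeR 4.0.16 in R 4.3.3 (quasi-likelihood, TMM scaling, filterByExpr), without a replicate block, with the thresholds given above. The script was tested on simulated data. Shares used cells thinned to 2000 UMIs, with Wilson intervals and exact permutation tests over libraries in scipy 1.17.1. Alternatives were DESeq2 1.42.0, other scaling, filters, thinning, doublet and cluster settings, each library left out and a replicate block.

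The receptors and all lists were chosen with earlier results of these data known. Genes named are the receptors, Fosl2, the 5 most like each receptor among genes of at least 20 CPM in a class, and listed genes that passed, that have at least 50 CPM in the class, or that are Prkar2b, Cyp19a1, Inhba, Star, Cyp11a1, Cyp17a1 or Mvk. The pituitary hormone genes, Ptgs2, Pgr and genes called by DESeq2 alone were named after their values were seen. Values of some listed genes are not reported here. Promoter windows are from RefSeq, which held both receptors.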

Additional observations from a re-analysis of the deposited data

How the results depend on the processing

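With 2 libraries per genotype and receptor UMIs in immune classes, comparisons between genotypes are limited, and the lower depth of Fosl2F/F 2 limits shares of cells. Of the main values recomputed with all 4 libraries, 324 counted as kept. For fitted differences this meant the same direction and side of the threshold, and for shares and co-detection ratios the direction only. For gene counts it meant a change of at most 1.5 times, and for levels a shift smaller than their SD. The share of mural-like cells with Lhcgr counted as kept unthinned, though its difference went from −22.5 to −8.38 points and the genotypes overlapped. Another 14 newly passed or grew by over 1.5 times, 3 no longer passed or shrank by as much, 10 turned and 2 moved. Of the further values (gene counts of single classes and the receptors in the remaining classes), 163 were kept, 55 newly passed or grew and 13 no longer passed or shrank. Lhcgr also passed with DESeq2 in GC-like (−2.08), mural-like (−1.65), atretic-like (−1.70) and mitotic-like cells (−1.88). With no filter on low counts Lhcgr passed in 10 of 14 classes and Fshr in 1. For Lhcgr these included GC-like (−2.11), mural-like (−1.65), atretic-like (−1.65), mitotic-like (−1.87) and glycolytic antral-like cells (−1.13). In that order, 243 of 25854, 316 of 22228, 298 of 22167, 600 of 23253 and 680 of 21925 genes of any kind then passed. In interstitial steroidogenic-like cells the Lhcgr difference turned to 0.0119 when both receptors were clustering features and to 0.0455 with finer clusters. The glycolytic antral-like median of Lhcgr moved from 33.2 to 12.2 CPM with coarser and 11.4 CPM with finer clusters. Without thinning, the difference in the share of cells was 9.005 percentage points for Fshr in GC-like, 8.99 for Fshr in mural-like and 6.63 for Lhcgr in interstitial steroidogenic-like cells, each turned. The co-detection ratio turned to a difference of 0.552 in mural-like and 0.0872 in GC-like cells at 2 or more UMIs, and to 0.0881 in GC-like cells at 1000 UMIs. The cause of these changes was not tested.

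Genes past the threshold, summed over 11 classes, numbered 168, against 874 with DESeq2, 3511 with no filter, 106 with cells over 2000 UMIs and 104 with more doublets removed. Same-numbered libraries did not deviate together in GC-like cells (r = −0.166), and r ran from −0.297 in growing follicle-like cells to 0.0998 in cluster 11. It was also above 0 in interstitial steroidogenic-like (0.0979) and macrophage-like cells (0.0724). With 2 libraries per genotype the crossed pairing always gives the same r with the sign turned. The numbers are thus not shown to pair the libraries. With the replicate block Lhcgr passed in 3 of 14 classes, among them GC-like cells (−1.92), and no longer in stromal-like cells (−2.20). Fshr turned in atretic-like (−0.19) and growing follicle-like cells (−0.063), and 310 genes passed. The crossed pairing, chosen after seeing the data, gave 2510 genes and called Lhcgr in 8 of 14 classes and Fshr in 0.

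Leaving out 1 library at a time, the Fshr difference ranged from −1.65 to 0.72 in GC-like, −1.94 to 0.68 in mural-like, −0.84 to 0.78 in cumulus-like, −1.35 to 0.76 in atretic-like, −1.62 to 0.43 in mitotic-like, −1.64 to 0.23 in glycolytic antral-like and −1.35 to 0.97 in growing follicle-like cells. It ranged from −2.23 to −0.12 in theca-like, −1.74 to 0.38 in interstitial steroidogenic-like, 0.20 to 1.47 in cluster 11, −1.87 to 0.22 in stromal-like, −3.23 to −0.55 in macrophage-like and −2.21 to −0.42 in endothelial-like cells. The Lhcgr difference ranged from −2.65 to −1.17 in GC-like, −2.14 to −0.86 in mural-like, −2.41 to −0.54 in cumulus-like, −2.20 to −0.94 in atretic-like, −2.22 to −1.43 in mitotic-like, −1.84 to −0.66 in glycolytic antral-like and −2.43 to −0.21 in growing follicle-like cells. It ranged from −1.95 to −0.51 in theca-like, −1.03 to 0.52 in interstitial steroidogenic-like, −1.25 to 2.60 in cluster 11, −2.94 to −1.45 in stromal-like, −2.55 to −0.85 in macrophage-like, −2.75 to −1.14 in NK or T-like and −2.43 to −0.19 in endothelial-like cells. The stromal-like call was lost without Fosl2F/F 1 (−2.69) and without Fosl2F/F 2 (−1.45). Shares differed by −20.3 to 13.4 points for Fshr in GC-like, −27.9 to 16.9 for Fshr in mural-like, −33.2 to −11.7 for Lhcgr in mural-like and −21.8 to 6.11 for Lhcgr in interstitial steroidogenic-like cells. The summed genes numbered 109 to 1464. The remaining sample of a pair is assumed to vary like the others. Not run were theca-like cells with both receptors as features or coarser clusters, interstitial steroidogenic-like cells with coarser clusters and cluster 11 over 2000 UMIs, which had no matching class or too few cells.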
